A study of Homo sapiens with 2 samples.

Results

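To follow the NF-kB pathway in LPS-activated THP-1 cells, 9 catalogue probes were taken from an lncRNA and mRNA microarray: 3 for NF-kB subunits (NFKB1, NFKB2 and RELB), 2 for feedback inhibitors (NFKBIA and TNFAIP3) and 4 for target genes (BIRC3, SOD2, ICAM1 and TNFAIP6). The rule names them by probe identifier and uses no measured value, though the 9 were chosen with earlier results of these data known. All 9 were on the array, out of 75149 probes. The gene of each probe is that of the Agilent catalogue. The scanner files as used here name no gene for these probes and hold no probe sequence, so the pairing of probe and transcript was not tested. THP-1 is a human monocytic leukaemia line (its monocyte markers were not analysed here, for the same lack of probe names), and LPS is a component of the outer membrane of Gram-negative bacteria. The Con array carried RNA of THP-1 cells labelled as control, for which the sample labels name DMSO and the methods describe untreated cells. The LPS array carried RNA of THP-1 cells stimulated with LPS. Both treatments lasted 48 h per the labels, and neither source used here gives the LPS dose. With 1 array per condition there was no replicate, so no p-value was computed, and the spread given here is that between spots of a probe on the same array. In bulk RNA, a change in the share of cells that express a gene and a change in RNA per cell cannot be told apart.

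NF-kB transcription factors are dimers of Rel-family proteins that IκB proteins hold in the cytoplasm of resting cells. LPS signals through TLR4 to the IκB kinase, IκBα is degraded, and the dimers enter the nucleus and bind kappaB sites near their target genes. Several of these targets, among them IκBα itself and the deubiquitinase A20, switch the pathway off again, and others encode proteins of survival, adhesion and matrix remodelling. In monocytes the first wave of this response is known to rise and decline within hours.

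Because kappaB sites lie close to the start of many of these genes, the bases around each start were read from the RefSeq promoter table (build GRCh38.p14, 250 bases before to 50 after the start). It matched 8 of the 9 genes, with 14 starts in all. RELB had no entry and was not searched. Both strands were searched for the 10-letter kappaB consensus and for the exact core GGAATTTCC, which overlaps it. The consensus was found at 6 of the 14 starts and in 5 of the 8 genes. It was present in 5.91% of all 35116 windows of this length and in 7.09% of the 27305 genes they cover. The core was found at 3 of the 14 starts and in 3 of the 8 genes, against 0.461% of all windows and 0.56% of those genes. These genes are known for their NF-kB response, so the counts describe them and are not a test. The stretches that hold the matches nearest to the start are shown for the genes with a match outside NFKB2, with the matched letters in capitals, each 5′ to 3′ on the strand of its gene. NFKBIA lies at chr14:35404806-35404845 (minus strand), TNFAIP3 at chr6:137867177-137867228, NFKB1 at chr4:102501295-102501334, BIRC3 at chr11:102317270-102317373 and ICAM1 at chr19:10270919-10270957 (plus strand).
NFKBIA: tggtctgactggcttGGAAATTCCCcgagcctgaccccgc
TNFAIP3: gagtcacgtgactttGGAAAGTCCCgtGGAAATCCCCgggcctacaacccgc
NFKB1: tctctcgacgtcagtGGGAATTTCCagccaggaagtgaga
BIRC3: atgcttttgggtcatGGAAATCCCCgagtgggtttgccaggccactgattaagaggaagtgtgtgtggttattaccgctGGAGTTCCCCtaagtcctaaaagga
ICAM1: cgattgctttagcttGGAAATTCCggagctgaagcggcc

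The NFKBIA match began at position -81 from the start and the NFKB1 match at -49, and both held the core. TNFAIP3 had a pair of matches at -67 and -55, separated by 2 bases. In BIRC3 they began at -199 and -135. ICAM1 held the core alone, at -186, without the full consensus. NFKB2 had matches at 2 of its 3 starts, the nearest at -21. These windows lie downstream of another NFKB2 start, so its stretches are not shown. None of the 4 SOD2 starts and not the TNFAIP6 start held either form within this window, which says only that these letters were not found there.

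Each of the 9 probes had 2 spots per array. None of the 18 spots on either array carried an outlier flag, and all 18 were well above background on both. The values are the processed signals of the scanner software, which are linear intensities after background subtraction. For each difference, the mean log2 signal of a probe was taken relative to the 75th percentile over all probes of its array, 547 on the Con array and 600 (599.8) on the LPS array, which lowers the LPS array by 0.13 (log2). The mean signal of 8 of the 9 probes lay in the 2 brightest of 10 equal groups of probes ranked by signal, and that of TNFAIP6 in the sixth (counted from the dimmest). In those groups the SD of the difference between arrays over matched spots of a probe, pooled over all probes, was 0.093 (brightest), 0.11 (next) and 0.16 (sixth) on the log2 scale. This SD is the yardstick for error between spots used here. It holds no variation between cultures, and no error that moves all spots of a probe on an array alike. Over all probes of the brightest group, the differences between arrays ran from -0.44 to 0.48 (log2; 5th to 95th percentile).

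After 48 h of LPS the 9 genes did not move as a set. TNFAIP6 was far higher on the LPS array, SOD2 nearly doubled, TNFAIP3 and NFKBIA were moderately higher, the subunits were close to level, and BIRC3 and ICAM1 were lower. The median difference, LPS minus Con, was 0.05 (log2) over the 9 probes, with 5 above 0 and 4 below, beside -0.05 over the 61465 probes detected on both arrays. At 2-fold, 1 of the 9 was higher (TNFAIP6) and 0 were lower. Of all probes, 0.723% were higher and 15.3% lower by this rule. Most of the lower probes were dim, and among the 31829 probes with a mean signal at or above that of TNFAIP6, the dimmest of the 9, 0.873% were higher and 1.92% lower. At 1.5-fold, 3 of the 9 were higher (TNFAIP6, SOD2 and TNFAIP3) and 1 was lower (ICAM1). The shares of all probes were then 2.39% and 22.0%, and those among the 31829 brighter probes 3.16% and 4.17%. The other 5 of the 9 stayed within 1.5-fold. Divided by the 75th percentile of their array, the TNFAIP6 spots went from between 0.109 and 0.136 to between 1.09 and 1.16, and in units of the pooled spot SD the differences ran from 0.297 (NFKB1) to 20.6 (TNFAIP6). For 8 of the 9 genes, all but NFKB1, the scaled spots of the arrays did not overlap, though for NFKB2 the gap was only 0.01 (log2). The share of all probes with spots apart was not computed. The count therefore describes these spots and does not set the 9 genes off from other probes.

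Among the subunits, NFKB1 encodes the precursor that is processed to the DNA-binding partner of RelA in the canonical pathway. Its probe A_23_P30024 gave 1329 and 1281 on the Con array and 1463 and 1340 on the LPS array. After scaling the spots of the arrays overlapped. The difference was -0.03 ± 0.07 (log2; SE from the pooled spot SD, 2 spots), well inside the spread between spots. Its direction turned with the scaling. It was 0.09 with the 50th percentile and 0.10 without scaling, but -0.18 with the E1A control probes and -0.47 with the control probes for human GAPDH and PGK1.

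NFKB2 encodes the precursor of the non-canonical pathway, whose processing releases a partner for RelB. The spots of A_23_P202156 read 3333 and 3207 on the Con array and 3693 and 3755 on the LPS array. The scaled spots were apart by only 0.01 (log2), and the difference was 0.05 ± 0.07, turning to -0.090 with scaling by the E1A control probes and -0.39 by the GAPDH and PGK1 probes. As scaled to the 75th percentile it lay within the spread between spots.

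RELB encodes the partner itself and is a known NF-kB target. Its probe A_23_P55706 read 1540 and 1494 on the Con array and 1574 and 1463 on the LPS array. The scaled LPS spots both lay under the Con spots, and the difference was -0.13 ± 0.07, which is 1.25 times the spot SD. Without scaling the arrays were level (0.001), while the difference was -0.28 with the E1A control probes and -0.57 with the GAPDH and PGK1 probes. Within its group of probes of like signal, 78.0% had a higher difference. The 3 subunits spanned -0.13 to 0.05 as scaled to the 75th percentile, and -0.57 to -0.39 with the GAPDH and PGK1 probes as reference.

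The feedback inhibitors were both higher on the LPS array. NFKBIA encodes IκBα, which removes NF-kB from DNA and returns it to the cytoplasm. For its probe A_23_P106002 the Con spots were 6174 and 6456 and the LPS spots 9428 and 8954. The LPS spots lay above the Con spots by at least 0.34 (log2) after scaling. The difference was 0.41 ± 0.07, or 1.33-fold, and 6.72% of the 7514 probes in its group by signal had a higher one. The control probes for human GAPDH and PGK1 were higher on the LPS array by 0.33 to 0.54 on the same scale. The highest value, of a GAPDH probe, rests on 5 LPS spots without an outlier flag, against 10 Con spots. With these control probes as the reference NFKBIA was level, at -0.03. Their part in the result was not tested.

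TNFAIP3 encodes A20, which edits ubiquitin chains on signalling proteins upstream of the IκB kinase. The spots of A_24_P157926 rose from 3002 and 2896 on the Con array to 4981 and 5265 on the LPS array. This pair of spots was also fully separated, by 0.60 (log2). The difference was 0.66 ± 0.07, or 1.58-fold, above that of NFKBIA by 0.26 ± 0.09, and 2.22% of the probes in the same group by signal had a higher one. With the GAPDH and PGK1 control probes as reference it was 0.22.

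The target genes went both ways. TNFAIP6 encodes TSG-6, a secreted hyaluronan-binding protein induced by TNF and IL-1 that is known to limit neutrophil recruitment. Its probe A_23_P165624 had signals of 74.6 and 59.6 on the Con array and 656 and 693 on the LPS array. The rise was 8.02-fold on the first spot and 10.6-fold on the second. The mean difference was 3.21 ± 0.11 (log2), or 9.22-fold, and only 19 of the 61465 probes detected on both arrays had a higher one. This error, and the 20.6 pooled SD above, use the sixth group by signal, where the LPS signal places the probe. Its Con signal of 66.7 lay in the range of the fourth group, 42.4 to 78.2, with a pooled SD of 0.24. The SD of its own 2 spot differences was 0.29. The brightness cut at its mean signal has the same limit. On the Con array the spots were dim, with raw medians of 99 and 80 over local backgrounds of 18 and 14. The SD between its spots was 0.23 (log2) on the Con array and 0.057 on the LPS array. With the normexp correction, which adds an offset, the difference was 2.38, and it stayed above 2-fold under each of the 14 alternatives run.

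SOD2 encodes the manganese superoxide dismutase of mitochondria, which is induced by inflammatory signals. A_23_P134176 read 5903 and 6232 on the Con array and 12799 and 12829 on the LPS array. The LPS spots agreed closely and lay 0.90 (log2) above the higher Con spot. The difference was 0.95 ± 0.07, or 1.93-fold, just under the 2-fold line, and in 0.692% of the probes of its group by signal it was higher. Without scaling, or with scaling to the 50th percentile, SOD2 passed 2-fold at 1.08 and 1.06. With the GAPDH and PGK1 control probes as reference it was 0.50.

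ICAM1 encodes the adhesion molecule that binds leukocyte integrins and is a classical NF-kB target. A_23_P153320 gave 1846 and 1881 on the Con array but 1279 and 1340 on the LPS array. Both LPS spots were lower, by 0.60 (log2) at the closest. The difference was -0.64 ± 0.07, so the Con signal was 1.56-fold the LPS signal, and 3.42% of the 7515 probes in its group by signal had a lower difference. It kept its sign under each alternative, from -1.08 with the GAPDH and PGK1 control probes to -0.51 without scaling.

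BIRC3 encodes cIAP2, a ubiquitin ligase that protects cells from death signalled by TNF receptors. The spots of A_23_P98350 fell from 5658 and 5244 on the Con array to 4745 and 4591 on the LPS array. The spots of the arrays did not overlap after scaling, with a gap of 0.28 (log2). The difference was -0.36 ± 0.07, and 6.32% of the probes in its group by signal had a lower one. The Con signal was 1.28-fold the LPS signal. The difference was -0.22 without scaling and -0.80 with the GAPDH and PGK1 control probes as reference, which is past 1.5-fold.

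Ranked by their difference, the 9 genes ran from ICAM1 through BIRC3, RELB, NFKB1, NFKB2, NFKBIA, TNFAIP3 and SOD2 to TNFAIP6. The neighbours RELB and NFKB1 were apart by 0.10 ± 0.11 (log2) and NFKB1 and NFKB2 by 0.09 ± 0.10, which is within the error between spots. The other neighbouring pairs were apart by at least 0.22 (RELB and BIRC3). The target genes alone spanned 3.85 (log2) from ICAM1 to TNFAIP6. Genes with a kappaB match in the windows read here were found among those higher (NFKBIA, TNFAIP3), near level (NFKB1, NFKB2) and lower (BIRC3, ICAM1) on the LPS array, and no relation between match and response was tested.

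A single scaling factor moves all 9 probes together and cannot change this order. The order was also the same with the normexp correction, quantile normalization, cyclic loess, the deposited value table and each of the spots taken alone. The position of 0 in it was less firm. As the scaling changed, the median of the probes detected on both arrays moved from -0.05 to 0.08 without scaling, 0.07 with the 50th percentile, 0.06 with quantile normalization, -0.20 with the E1A control probes and -0.49 with the GAPDH and PGK1 control probes. The number of the 9 genes above 0 was 7 without scaling, 4 with the E1A probes and 3 with the GAPDH and PGK1 probes. TNFAIP6, SOD2 and TNFAIP3 were higher, and ICAM1 and BIRC3 lower, under all 14 alternatives. NFKB1, NFKB2, RELB and NFKBIA each changed sign under at least 1 of them. Not every alternative could do this. Without a filter, or with probes detected on both arrays alone, the 9 differences stay the same, as all their spots were well above background.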

How the data were processed

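THP-1 RNA of 1 control and 1 LPS sample was labelled with Cy3 and hybridised to 1-colour Agilent arrays. Per the file headers, intensity values come from Feature Extraction 11.5.1.1 with background subtraction and spatial detrending, unscaled between arrays, and the deposited flags (outlier, saturated, well above background) are other values of 0 or 1. A further deposited table gives 1 intensity per probe and array. Outlier-flagged spots were dropped, log2 signals averaged per probe, and the 75th percentile of each array subtracted. A probe was detected where a majority of its spots was well above background. Where 1 array was below background, the fold was a bound. It was taken from the probe's own signal there or the lowest detected signal of that array, whichever was higher. A bound that left no difference in its direction was dropped. A probe was called at 2-fold, a rule of size without a test, because each condition had 1 array. The scaling and fold steps were checked on simulated data with known folds, which says nothing of the spread between samples.

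All 9 probes of the rule are named. The members, lists and alternatives were chosen with earlier results of these data known, and the GAPDH and PGK1 reference and the single spots were added after seeing the data. The list of other NF-kB pathway genes and the monocyte markers set for the cell type were not analysed here, because no file used pairs their probes with genes. Normexp (offset 50, on median spot and background intensities), quantile and cyclic loess used limma 3.58.1 in R 4.3.3, other steps Python 3.11.15 with numpy 2.4.6 and pandas 2.3.3. The number of arrays limits the precision of the comparison.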

Additional observations from a re-analysis of the deposited data

How the results depend on the processing

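Of the 9 differences, 89 of 126 values under the 14 alternatives lay within the pooled spot SD of the value reported. That count is partly fixed in advance, because every member spot was unflagged and well above background. Dropping the filter or using only probes detected on both arrays left the 9 unchanged. Keeping outlier spots, the percentile of detected probes and the deposited table hardly moved them. TNFAIP6, the only 2-fold call, kept its sign, while NFKB1, NFKB2, RELB and NFKBIA each changed sign under at least 1 alternative. The number of the 9 at least 2-fold higher was 2 with the 50th percentile and without scaling, and 3 at 1.5-fold, against 1. Of all 75149 probes, 729 were 2-fold higher with the 50th percentile and 754 without scaling. The number of the 9 lower was 1 with the GAPDH and PGK1 control probes (ICAM1) and 1 at 1.5-fold, against 0. Of all 75149 probes, 16975 were lower with those control probes and 16530 at 1.5-fold. The median of the 9, 0.05 (log2), became 0.17 with the 50th percentile, 0.19 without scaling, -0.090 with the E1A probes and -0.39 with the GAPDH and PGK1 probes, the cause being the scaling factor itself.

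Over all probes, 543 were higher and 11473 lower. These counts became 312 and 1314 with normexp, 2827 and 3610 with quantile normalization, and 1648 and 4165 with cyclic loess. With the GAPDH and PGK1 probes 269 were higher and 16975 lower. With probes detected on both arrays alone 4562 were lower, because bounds drop out. At 1.5-fold 1794 were higher, at 3-fold 214 were higher and 6163 lower, and at 4-fold 108 and 3405. The share of calls that were lower was 95.5%, and 80.8% with normexp, 56.1% with quantile normalization and 71.6% with cyclic loess. Apart from the arithmetic of thresholds and bounds, the cause was not tested. No paired analysis was possible because each condition has 1 array, and no replicate could be left out. Signal over background limits TNFAIP6 on the Con array alone, since the other 8 probes were bright on both arrays.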
